A study of Rattus norvegicus and Mus musculus and Macaca mulatta with 84 samples.

Results

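Liver microRNAs (miRNAs) were compared between 5 obese and 5 lean rats of the Zucker fatty model, 10 of the 84 samples in the series. The members were chosen by their titles and by the run names in the deposited table, and all miRNAs of that table are described. Every Zucker sample was labelled with the strain Zucker Fatty and with a mutation of the leptin receptor gene, and the lean and the obese samples carried the same strain and gene labels, so the genotype of the lean rats at that gene is not stated separately. Age, sex, diet and treatment of the obese and the lean rats were not stated. Whole liver was used, so fewer cells of a type and less RNA per cell cannot be told apart in any value below. The same table held 5 vehicle-treated and 5 BT2-treated Zucker rats, which the labels do not assign to obese or lean. They enter the filter on low levels and the estimate of spread. Their own levels are given only for some miRNAs, as a second range, and mostly for the vehicle-treated rats. Each library was 1 replicate by its title, and the p-values measure the spread between these libraries.

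An miRNA is cut from a hairpin in a longer transcript, and either arm of the hairpin (5p or 3p) can be loaded into an Argonaute protein. The loaded strand recognises messenger RNAs mainly through its seed, bases 2 to 8 from the 5′ end, so miRNAs with the same seed share many possible targets. Several hairpins often lie in one transcript and are made together. Liver is dominated by miR-122-5p, an miRNA of hepatocytes, and in obesity miR-34a, miR-802, miR-103 and miR-107 have been studied for their part in glucose and lipid handling. Leptin, a hormone of fat tissue, restrains feeding through its receptor, and rats that lack a working receptor overeat, gain fat and become insulin resistant.

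The mature sequences below are those of the miRNAs on which the comparison turns, with the seed in capitals. They are rat sequences from RefSeq (assembly GRCr8), and 197 of the 218 mature miRNAs tested had an entry there. The miR-182 and miR-183-5p sequences come from neighbouring hairpins on chromosome 4 and have different seeds, and both rose.
miR-182: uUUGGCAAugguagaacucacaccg
miR-183-5p: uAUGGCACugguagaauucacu
The mature miR-182 lies at chr4:59752249-59752273 and miR-183-5p at chr4:59756106-59756127, both on the minus strand and outside any other RefSeq gene. The next 3 are among the largest rises, and miR-34c-5p is shown because it has the seed of miR-34a-5p and did not rise.
miR-132-3p: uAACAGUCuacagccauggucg
miR-155-5p: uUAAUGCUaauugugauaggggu
miR-34a-5p: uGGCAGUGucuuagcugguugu
miR-34c-5p: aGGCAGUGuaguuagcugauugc
The mature miR-132-3p lies at chr10:60522091-60522112 (plus strand), and miR-155-5p at chr11:37261117-37261139 (plus strand) within the long noncoding RNA gene Mir155hg. The mature miR-34a-5p lies at chr5:165815971-165815992 (plus strand) within a long noncoding RNA gene, and miR-34c-5p at chr8:60306133-60306155 (minus strand) within the protein-coding gene Hoatz. The following 5 share the seed AGCAGCA but come from 3 places in the genome, with similar changes within a place.
miR-322-5p: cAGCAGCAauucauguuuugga
miR-195-5p: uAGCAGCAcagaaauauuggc
miR-497-5p: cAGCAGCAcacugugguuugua
miR-16-5p: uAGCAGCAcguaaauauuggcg
miR-15b-5p: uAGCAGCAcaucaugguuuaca
The mature miR-322-5p lies at chrX:137726198-137726219 (minus strand), miR-195-5p at chr10:55450509-55450529 (plus strand) and miR-497-5p at chr10:55450172-55450193 (plus strand). The listed copies of miR-16-5p at chr2:155555343-155555364 and miR-15b-5p at chr2:155555197-155555218 lie on the plus strand within the protein-coding gene Smc4. The last 4 are both arms of a hairpin that rose, overlapping the protein-coding gene Dnm3 at chr13:77116255-77116277 (5p) and chr13:77116294-77116315 (3p), and 2 miRNAs that fell.
miR-199a-5p: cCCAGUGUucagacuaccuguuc
miR-199a-3p: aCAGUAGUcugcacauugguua
miR-375-3p: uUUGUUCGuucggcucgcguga
miR-92a-1-5p: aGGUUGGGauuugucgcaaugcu
The mature miR-375-3p lies at chr9:83906591-83906612 (minus strand), overlapping the protein-coding gene Cryba2, and miR-92a-1-5p at chr15:98588565-98588587 (plus strand).

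Values are reads per 1000000 miRNA reads (RPM), so a level is a share, and a change in the most abundant miRNA moves all others. An estimated 8200000 to 19000000 miRNA reads stood behind a lean library and 10800000 to 16300000 behind an obese one if the lowest listed value stands for about 10 reads, which the sources do not state. Both groups were spread alike over 3 sequencing lanes, with 2 libraries of each group in lane 1, 2 in lane 2 and 1 in lane 3. No library correlated above 0.993 with another, and obese replicate 2 had the lowest mean correlation with its group (0.962). That library also held the highest level in its group of the muscle miRNAs miR-1-3p and miR-206-3p, and results are given without it where that matters. A change is log2(RPM + 1) in obese minus lean, with its standard error (SE) and an adjusted p from limma (Benjamini-Hochberg over all features), and a miRNA is said to have risen or fallen only where that p was under 0.05. Counts over miRNAs use mature totals, in which all forms of a mature miRNA were added up. Values for a single miRNA are those of its canonical form unless a total is named.

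The largest single component of every library was miR-122-5p. The miR-122-5p total was 54.7%, 55.2%, 48.3%, 46.1% and 49.0% of all miRNA reads in lean replicates 1 to 5, and 38.9%, 39.6%, 49.2%, 49.6% and 38.1% in obese replicates 1 to 5. The groups overlapped through the obese libraries of lane 1 (replicates 3 and 4), and within each lane every obese library was below every lean one. The means were 50.6% ± 4.09 (SD, n = 5) in lean and 43.1% ± 5.81 in obese (n = 5; two-sided exact permutation p = 0.0794, adjusted 0.0952 over the 2 shares tested). With the group labels exchanged only within lanes, the exact p was 0.0278, the smallest that design can give, an alternative chosen after seeing the lanes. The canonical form of miR-122-5p fell by 0.24 on the log2 scale (SE 0.08, limma adjusted p = 0.0223), a call that was lost without obese 1, 2 or 5 or lean 1 or 2 (highest adjusted p 0.0713).

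The second most abundant miRNA moved the other way. The miR-21-5p total, an miRNA abundant in many tissues and studied in fatty liver, took 3.71%, 3.25%, 4.97%, 4.44% and 4.89% of lean reads and 8.84%, 6.97%, 4.51%, 5.35% and 7.77% of obese reads. Obese 3 lay inside the lean range and the other 4 above it. The total rose by 0.63 (SE 0.17, limma adjusted p = 0.00613), and its rescaled change of 0.33, on the scale described below, was not called (adjusted p = 0.0965). The 10 most abundant miRNAs together held 80.4% ± 1.20 (SD, n = 5) of lean and 76.6% ± 2.19 (n = 5) of obese reads.

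**Figure D1:**
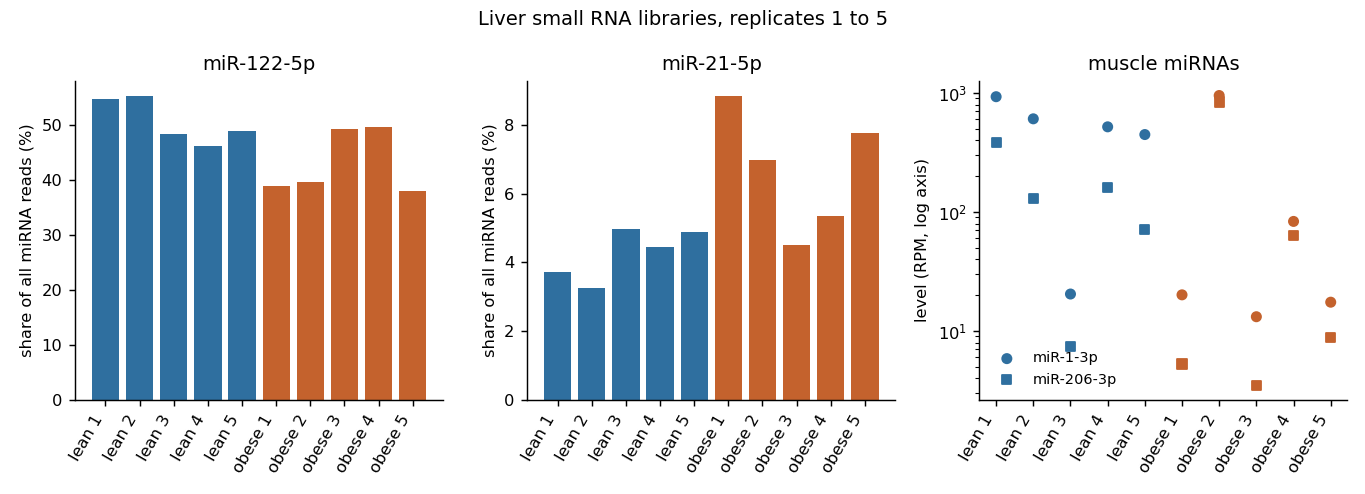
Share of all miRNA reads taken by miR-122-5p and miR-21-5p (bars, %) and levels of the muscle miRNAs miR-1-3p (circles) and miR-206-3p (squares, RPM on a log axis) in each lean (blue) and obese (orange) library. The miR-122-5p share reached 55.2% in lean and went down to 38.1% in obese livers, and miR-1-3p was high in 4 lean libraries and in obese 2.

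Most changes ran upward. Of 218 mature miRNAs tested, 85 rose (39.0%) and 3 fell (1.38%), and the median change of all was 0.36. Counts of risen members of a list, family or group below are to be read beside that 39.0%. Every obese library lay above every lean one for 46 of them (21.1%) and below for 2 (0.917%). The 3 that fell were miR-92a-1-5p, miR-375-3p and miR-122-5p. A log2 change of at least 1 was found for 23 of the risen, and 56 of the 85 were called with every obese and every lean library left out in turn. Among single forms, 150 of 422 rose (35.5%) and 13 fell (3.08%), the falls being 6 forms of miR-122-5p, 4 of let-7 entries marked +3, miR-375-3p, miR-92a-1-5p and miR-92a-1-3p marked +4. Without obese 2 the counts of totals were 59 and 3, and without obese 5 they were 63 and 2. With the vehicle and BT2 libraries left out of the fit, 77 rose and 2 fell, and 75 of these calls were among the 88. Of 51 named canonical forms and ratios 9 then lost their call: miR-122-5p, let-7e-5p, miR-141-3p, miR-106b-5p, miR-27a-3p, miR-27b-5p and the shifted ratios of miR-122-3p, miR-199a-3p and miR-203a-3p.

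The direction split depends on the scale. After a median-of-ratios rescaling of the libraries, which moved the median change by -0.30, 38 rose (17.4%) and 20 fell (9.17%), and 41 of the 88 calls were shared, none in the opposite direction. Per 1000000 reads other than miR-122-5p the median moved by -0.20, and 47 rose (21.7%) and 8 fell (3.69%). Changes near 0.30 or below are therefore not told apart from that shift, and a second value, "rescaled", is given below. The miRNAs that fell only after rescaling included let-7a-5p (rescaled -0.47), miR-26a-5p (-0.36) and miR-92a-3p (-0.69), whose changes as deposited were -0.16, -0.05 and -0.39 and were not called.

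**Figure D2:**
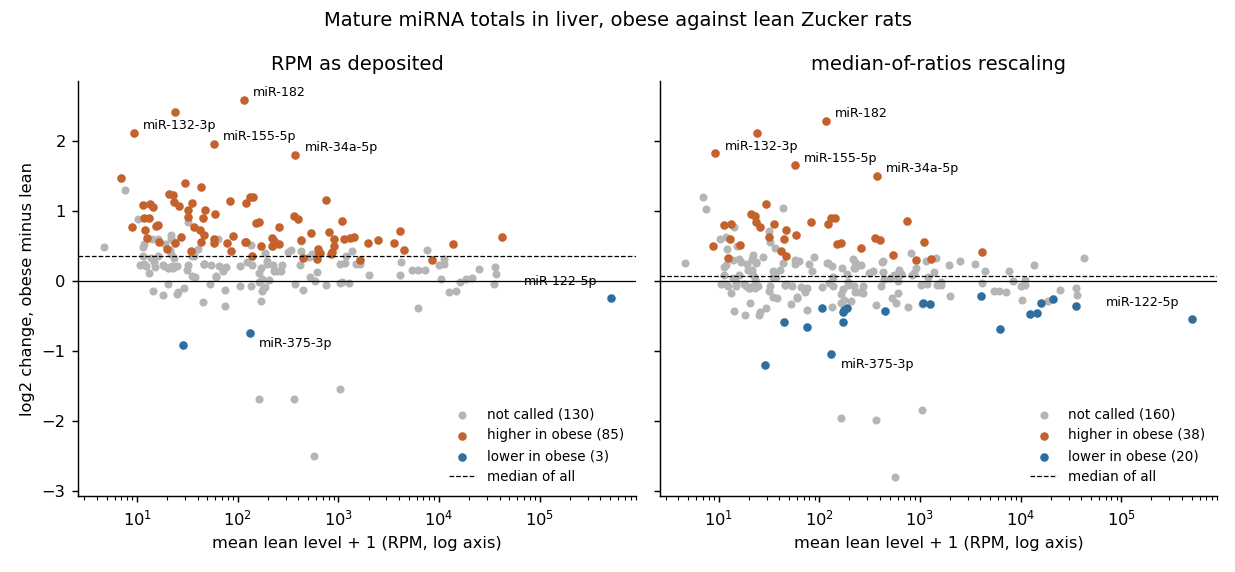
Change of each of 218 mature miRNA totals (log2, obese minus lean) against its mean lean level (RPM + 1, log axis), as deposited (left) and after rescaling (right), with called miRNAs in colour and the median as a dashed line. The median is 0.36 on the left and 0.07 on the right, and the miRNAs with the largest rises, miR-182 among them, stay far above it in both.

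The largest rises were of the miR-183 cluster, an miRNA group known from sensory organs and studied in fatty liver and tumours. The level of miR-182 was 104, 65.8, 128, 136 and 137 RPM in lean replicates 1 to 5 and 743, 604, 650, 487 and 858 RPM in obese ones. Every obese library was above every lean one. The means were 114 ± 30.2 and 668 ± 140 RPM (SD, n = 5 each), a log2 change of 2.56 (SE 0.24, limma adjusted p = 1.3e-07, rescaled 2.26). The partner miR-183-5p went from 13, 9.59, 19.1, 21.2 and 25.5 RPM in lean to 112, 94.2, 94.3, 62.2 and 118 RPM in obese livers, again with no overlap. Its log2 change was 2.42 (SE 0.24, limma adjusted p = 3.2e-07). Vehicle-treated Zucker rats were above every lean library for both, at 236 to 494 RPM of miR-182 and 34.8 to 69.0 RPM of miR-183-5p, and reached into the obese range.

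The level of miR-132-3p, an miRNA induced by CREB signalling and studied in liver fat storage, was 9.23, 9.91, 6.89, 7.36 and 8.12 RPM in lean livers. In obese livers it was 30.4, 66.3, 32.4, 31.6 and 35.3 RPM. The groups did not overlap, and obese 2 stood far above its group. The log2 change was 2.06 (SE 0.18, limma adjusted p = 9.6e-08, rescaled 1.77), and 1.85 without obese 2. Vehicle-treated rats had 6.63 to 9.08 RPM, overlapping the lean range. The miR-132-3p total in BT2-treated rats was 13.2 to 21.2 RPM, above every lean library and below every obese one.

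Of the same size was the rise of miR-155-5p, an miRNA induced in activated leukocytes. Lean libraries held 49.8, 41.5, 49.1, 74.2 and 62.6 RPM, and obese libraries held 167, 268, 220, 205 and 192 RPM. The log2 change was 1.92 (SE 0.17, limma adjusted p = 9.6e-08, rescaled 1.62), with values of 2.20, 1.72 and 1.74 within lanes 1, 2 and 3. Vehicle-treated rats had 56.6 to 90.7 RPM, overlapping the lean range.

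For miR-34a-5p, a target of p53 that represses the deacetylase SIRT1, lean livers fell into 2 levels. Lean 1 and 2, both of lane 1, had 520 and 608 RPM, and lean 3, 4 and 5 had 190, 223 and 205 RPM. Obese livers had 1240, 1363, 1240, 686 and 995 RPM, all above every lean one. The log2 change was 1.80 (SE 0.31, limma adjusted p = 0.000252, rescaled 1.5), but it was 0.71 within lane 1 against 2.44 in lane 2 and 2.70 in lane 3. The miR-34c-5p total, with the same seed, was 44.0 ± 4.84 RPM in lean and 35.9 ± 6.53 RPM in obese livers (SD, n = 5 each; log2 change -0.30, limma adjusted p = 0.121, rescaled -0.59 with adjusted p = 0.00805).

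The 2 falls other than miR-122-5p were both without overlap. The level of miR-375-3p, an miRNA of pancreatic islet cells, was 101, 133, 101, 95.3 and 140 RPM in lean and 58.1, 89.9, 75.1, 69.0 and 50.9 RPM in obese livers, a log2 change of -0.74 (SE 0.21, limma adjusted p = 0.0115, rescaled -1.03). The level of miR-92a-1-5p, the minor arm of an miR-17-92 hairpin, was 24.7, 33.9, 22.8, 33.6 and 24.02 RPM in lean and 11.4, 16.5, 11.9, 16.5 and 14.9 RPM in obese livers. Its log2 change was -0.91 (SE 0.18, limma adjusted p = 0.000579, rescaled -1.20).

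**Figure D3:**
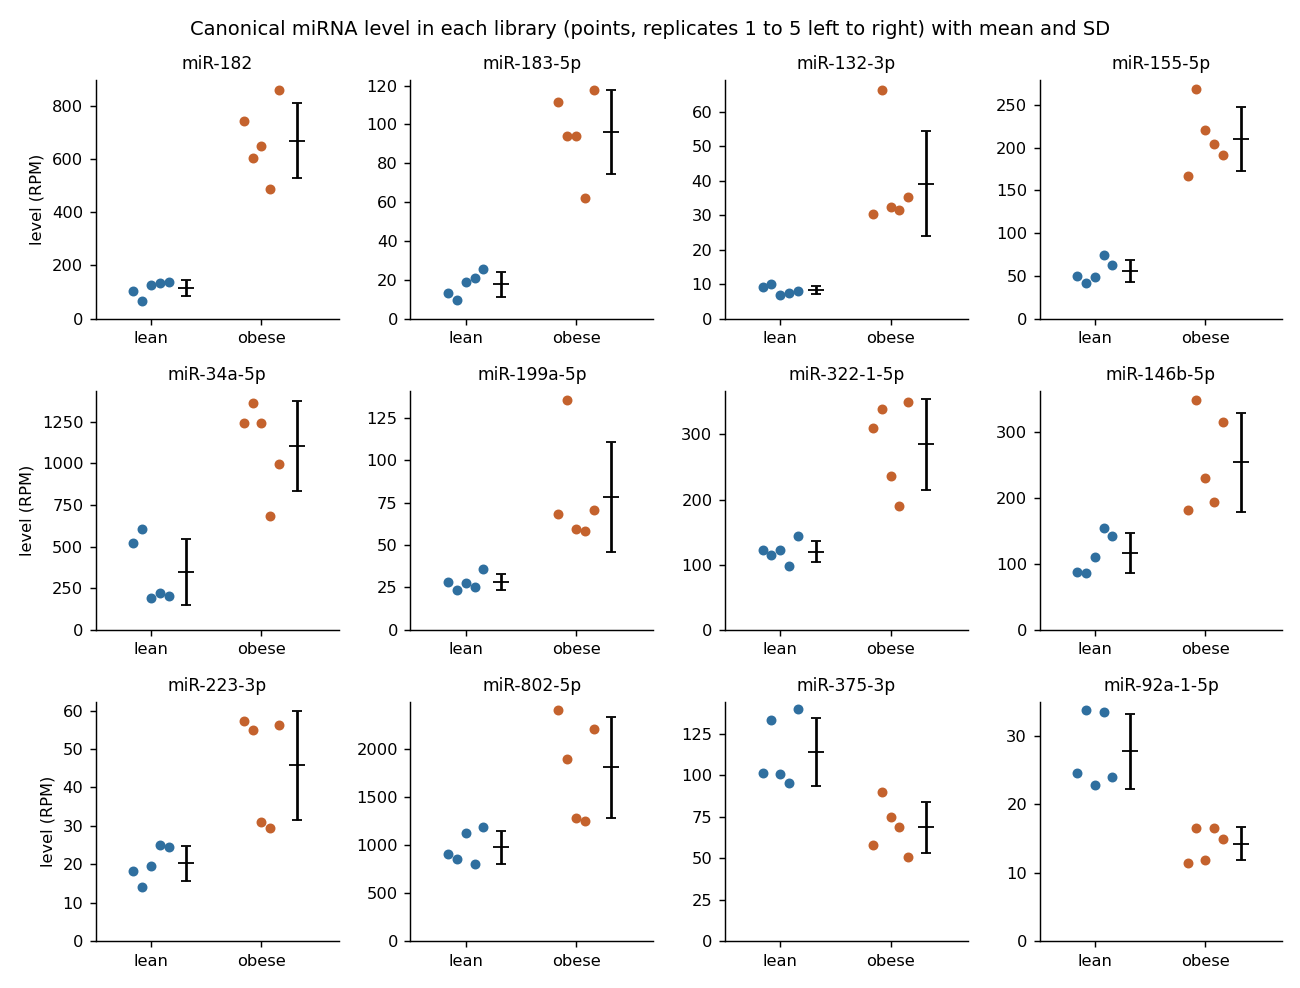
Canonical level (RPM, axes from 0) of 12 miRNAs in each lean (blue) and obese (orange) library, with mean and SD in black. All 12 separate the groups without overlap, and obese 2 stands above its group for miR-132-3p (66.3 RPM) and miR-199a-5p (135 RPM).

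Among miRNAs studied in liver metabolism, 14 of 21 tested members rose and none fell, beside 39.0% risen among all 218, with a median change of 0.63 against 0.36 for all, and 13 rose without obese 2. After rescaling 9 rose and 2 fell, beside 17.4% and 9.17% of all. The list was chosen with earlier results of these data known, so its count is not independent evidence. Both arms of the miR-802 hairpin and the neighbours miR-221-3p and miR-222-3p are counted as separate members, though they are not independent. Beyond miR-182's partner, miR-132-3p and miR-34a-5p, the list held miR-802-5p, an miRNA studied in obesity and glucose handling. Its levels were 906, 850, 1130, 800 and 1190 RPM in lean and 2410, 1896, 1286, 1253 and 2210 RPM in obese livers. The lowest obese library was just above the highest lean one, and the log2 change was 0.86 (SE 0.21, limma adjusted p = 0.00409, rescaled 0.56). Within lane 1 it was 0.53, and 1.07 and 1.09 in lanes 2 and 3.

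The insulin-sensitivity miRNAs miR-103-3p and miR-107-3p share the seed GCAGCAU and both rose. The miR-103-3p total went from 1436 ± 102 to 2217 ± 126 RPM (SD, n = 5 each; log2 change 0.63, SE 0.12, limma adjusted p = 0.000547). The miR-107-3p total went from 1148 ± 150 to 1722 ± 124 RPM (log2 change 0.59). Neither group overlapped the other for either miRNA, but the rescaled changes of 0.33 and 0.29 were not called (adjusted p = 0.0596 and 0.116).

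The miR-378a-3p hairpin lies in the gene of the metabolic coactivator PGC-1β. Its level was 12864, 11412, 12706, 16391 and 10024 RPM in lean and 17394, 18657, 19255, 16765 and 17151 RPM in obese livers, a log2 change of 0.51 (SE 0.16, limma adjusted p = 0.0166). The groups did not overlap, lean 4 coming closest, and the rescaled change of 0.21 was not called. It was 1 of 3 tested members of its family to rise (39.0% of all miRNAs rose).

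The miR-29 family, which represses collagens and other matrix genes, changed in 1 of 4 tested members (39.0% of all miRNAs rose). The level of miR-29b-3p (locus 1) was 7.53, 9.07, 9.08, 4.81 and 13.5 RPM in lean and 20.9, 18.0, 12.9, 9.95 and 19.9 RPM in obese livers. The groups overlapped, and the log2 change of 0.84 (SE 0.26, limma adjusted p = 0.0176) was lost without obese 5 or lean 4 and after rescaling (0.55, adjusted p = 0.084). Without obese 2 none of the 4 family totals was called. The far more abundant miR-29a-3p was 3623 ± 520 RPM in lean and 4318 ± 376 RPM in obese livers (log2 change 0.26, limma adjusted p = 0.185). The miR-29c-3p level was 399 ± 84.9 and 472 ± 124 RPM (log2 change 0.23, limma adjusted p = 0.422), with -0.25 in lane 1 and 0.58 and 0.48 in lanes 2 and 3.

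The let-7 family, 9 mature miRNAs with the seed GAGGUAG that restrain growth genes, changed in 2 members (39.0% of all miRNAs rose). The level of let-7i-5p was 4108, 4221, 4265, 5088 and 4188 RPM in lean and 5146, 6632, 6338, 5824 and 5864 RPM in obese livers, with no overlap and a log2 change of 0.45 (SE 0.11, limma adjusted p = 0.00414). The log2 change of let-7e-5p was 0.39 (limma adjusted p = 0.0233), lost without obese 2 or 3 or lean 2 or 3. The summed family level was 80090 to 94149 RPM in lean and 74225 to 99376 RPM in obese livers. Its median change turned from 0.03 to -0.27 on rescaling, where none rose and 3 fell.

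The counts of risen cell type markers below are to be read beside the 39.0% risen and the median of 0.36 among all 218 miRNAs, and the counts of stellate, leukocyte, red cell and epithelial markers were near that share. Among 10 hepatocyte miRNAs tested, none rose and miR-122-5p fell, with a median change of 0.16 that turned to -0.14 on rescaling, where 2 fell. The hepatocyte miRNA miR-192-5p was 31290 ± 5114 RPM in lean and 34449 ± 8013 RPM in obese livers (log2 change 0.12, limma adjusted p = 0.510). The miR-194-5p entry of locus 1 was 4706 ± 658 and 5101 ± 1016 RPM (log2 change 0.10, limma adjusted p = 0.622). That locus lies on chromosome 13, whereas miR-192-5p lies on chromosome 1 beside the other miR-194 copy.

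Of 7 miRNAs of stellate cells and fibroblasts tested, 3 rose and none fell (39.0% of all miRNAs rose). The 3 were the miR-199a and miR-214 miRNAs, whose positions overlap the Dnm3 gene. The summed level of the list ran from 7187 to 10515 RPM in lean and from 9457 to 16487 RPM in obese livers. Most of that sum was miR-143-3p, at 6284 to 9124 RPM in lean and 7691 to 14159 RPM in obese livers, which was not called. The level of miR-199a-5p was 28.3, 23.5, 27.7, 25.0 and 36.1 RPM in lean and 68.2, 135, 59.2, 58.1 and 70.5 RPM in obese livers. The groups did not overlap, with a log2 change of 1.38 (SE 0.22, limma adjusted p = 0.000149, rescaled 1.09), and 1.17 without obese 2. Its other arm, miR-199a-3p, went from 619 ± 69.8 to 1389 ± 419 RPM (SD, n = 5 each; log2 change 1.13, limma adjusted p = 6.9e-05), and miR-214-3p from 16.2 ± 7.42 to 38.9 ± 21.03 RPM (log2 change 1.18, limma adjusted p = 0.00865). The miR-143 and miR-145 arms of smooth muscle and stellate cells, the other 4 of the list, had changes of 0.22 to 0.60 and were not called. The list members miR-199b-3p and miR-214-5p had no entry above 0 in these libraries.

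Of 8 leukocyte miRNAs tested, 3 rose and 5 were not called (39.0% of all miRNAs rose), and after rescaling 3 rose and 2 fell (miR-150-5p and the macrophage miRNA miR-511-3p). The level of miR-223-3p, an miRNA of neutrophils and macrophages, was 18.1, 14, 19.4, 25.0 and 24.5 RPM in lean and 57.2, 54.8, 31.1, 29.4 and 56.3 RPM in obese livers. The groups did not overlap, and the log2 change was 1.11 (SE 0.22, limma adjusted p = 0.000772, rescaled 0.82). The level of miR-146b-5p, induced by NF-κB, went from 117 ± 31.02 to 254 ± 74.6 RPM (SD, n = 5 each; log2 change 1.11, limma adjusted p = 0.000252, rescaled 0.81). With miR-155-5p these were the 3 that rose. The lymphocyte miRNA miR-150-5p had a change of -0.36 and miR-142-3p of 0.66, neither called. The summed leukocyte level was 1666 to 2760 RPM in lean and 2400 to 3318 RPM in obese livers. Most of that sum was miR-146a-5p, at 1147 to 1983 RPM in lean and 1607 to 2138 RPM in obese livers, which was not called.

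Red cell miRNAs had a median change of 0.88 (0.36 for all miRNAs), and 1 of 3 rose (39.0% of all miRNAs rose). The 1 was miR-144-5p, which went from 29.8 ± 6.97 to 64.7 ± 34.3 RPM (SD, n = 5 each; log2 change 0.96, limma adjusted p = 0.0162). That call was lost without obese 5 and after rescaling, and the summed level of the list overlapped, at 54.6 to 116 RPM in lean and 75.3 to 257 RPM in obese livers. Both endothelial miRNAs tested rose, miR-126a-3p by 0.56 and miR-126a-5p by 0.58 (limma adjusted p = 0.0173 and 0.0220). They are the 2 arms of 1 hairpin and so not independent markers. Both calls were lost without obese 2 or 5 and after rescaling, and the miR-126a-5p call also without obese 1 or lean 1 or 2. The summed endothelial level was 3752 to 5460 RPM in lean and 4739 to 8089 RPM in obese livers.

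Of 5 bile duct and epithelial miRNAs tested, the neighbours miR-200c-3p and miR-141-3p rose (39.0% of all miRNAs rose). The level of miR-200c-3p was 75.6, 56.0, 62.4, 87.7 and 110 RPM in lean and 159, 116, 300, 92.1 and 260 RPM in obese livers, with obese 4 inside the lean range. The log2 changes were 1.13 (SE 0.28, limma adjusted p = 0.00477) and 1.01 for miR-141-3p (SE 0.33, limma adjusted p = 0.0203), the second lost without obese 5 or lean 1 or 2 and after rescaling. The other epithelial members, miR-200a-3p, miR-200b-3p and miR-429, come from a separate transcript and had changes of 0.57, 0.18 and 0.59, not called. The summed level was 478 to 1256 RPM in lean and 702 to 1647 RPM in obese livers. The part of cell type markers in the changes of other miRNAs was not tested.

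Markers of other tissues were present in some libraries. The muscle miRNA miR-1-3p was 931, 607, 20.5, 520 and 448 RPM in lean and 20.1, 952, 13.2, 83.4 and 17.5 RPM in obese livers. High levels were thus found in 4 lean libraries and in obese 2, with obese 4 between these and the rest, and the log2 change of -2.53 (SE 1.34, limma adjusted p = 0.146) was not called. Without obese 2 it was -3.56 (limma adjusted p = 0.0413), and without lean 3 it was -3.49 (adjusted p = 0.0419). Another muscle miRNA, miR-206-3p, was highest in obese 2 and lean 1, and lean 5 and obese 4 had similar levels of it, with 386, 131, 7.4, 162 and 71.8 RPM in lean and 5.29, 840, 3.51, 63.8 and 8.77 RPM in obese livers. The summed level of the muscle list ran from 48.6 to 2236 RPM in lean and from 46.9 to 3165 RPM in obese livers. With the miR-1-3p level as a covariate, an alternative chosen after seeing these values, 85 mature totals rose and 3 fell. Equal counts do not mean that each call was kept. Of 50 named canonical forms and ratios 43 had the same call, 5 lost it, 1 gained a call and 1 was reversed. Among single forms 142 rose and 8 fell, against 150 and 13 without the covariate. Of 2 pancreas miRNAs tested, miR-375-3p fell and miR-217-5p was not called, with a summed list level of 111 to 158 RPM in lean and 61.2 to 113 RPM in obese livers. No neuron marker reached the filter (summed level at most 9.40 RPM).

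Changes of neighbouring hairpins were less spread than those of all grouped miRNAs. RefSeq positions put 78 tested miRNAs into 26 groups with tested members of at least 2 hairpins, each hairpin within 10000 bases of the next on one strand. miRNAs listed under 1 name at more than 1 gene were left out of the groups. The entries let-7a-1-3p and let-7c-2-3p have separate names but the same sequence and nearly the same levels (log2 change 0.24 each). Both were kept, so they are not independent members. The median range of change within a group was 0.25. The pooled SD within groups was 0.21, against an SD of 0.68 over the 78 members and 0.56 over all miRNAs tested. Arms of one hairpin are counted as separate members, and neighbours can share a transcript, so they are not independent. In 10 groups every tested member rose, in 5 some rose, in 10 none was called, and in the miR-17-92 group 1 of 5 fell. Of all 218 miRNAs tested, 39.0% rose.

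The largest group that rose whole was on the X chromosome, where all 6 tested miRNAs of the miR-322 to miR-450 region rose by 0.91 to 1.19. Members of this region have been studied in muscle differentiation and in cell cycle arrest. The level of miR-322-5p (locus 1) was 122.3, 114, 122.4, 98.5 and 144 RPM in lean and 310, 339, 236, 189 and 350 RPM in obese livers, with no overlap and a log2 change of 1.21 (SE 0.17, limma adjusted p = 4.2e-05, rescaled 0.91). The level of miR-450a-5p followed with 140 ± 19.9 and 328 ± 83.1 RPM (SD, n = 5 each; log2 change 1.19, limma adjusted p = 6.9e-05), and miR-542-3p (locus 1) with 10.3 ± 2.54 and 23.2 ± 6.27 RPM (log2 change 1.08). Within lane 1 the miR-322-5p change was 0.83, and 1.53 and 1.33 in lanes 2 and 3. Vehicle-treated rats had 79.7 to 142 RPM of miR-322-5p, within or below the lean range.

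All 4 arms of the miR-191 and miR-425 hairpins on chromosome 8 rose by 0.71 to 0.89. The miR-191a-5p total went from 4136 ± 267 to 6820 ± 899 RPM (SD, n = 5 each; log2 change 0.71, SE 0.13, limma adjusted p = 0.000274, rescaled 0.41), with no overlap. On chromosome 19 miR-181c-5p and miR-181d-5p rose by 1.11 and 1.01 as totals. Canonical miR-181c-5p was 30.3, 30.3, 29.7, 36.0 and 44.7 RPM in lean and 52.2, 92.9, 82.9, 57.1 and 89.0 RPM in obese livers, with no overlap (log2 change 1.09, SE 0.18, limma adjusted p = 0.000213). On the X chromosome miR-221-3p and miR-222-3p, which act on cell cycle inhibitors, rose by 0.88 and 0.95 (limma adjusted p = 0.00338 and 0.00691). In obese 1, at 399 and 57.9 RPM, both lay inside the lean ranges of 334 to 426 and 41.2 to 65.5 RPM.

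Of the miR-106b-25 cluster, which lies in the Mcm7 gene, 4 of 4 tested members rose, by 0.30 to 0.64 (39.0% of all miRNAs rose). Its most stable member was miR-93-5p at 913, 846, 881, 921 and 923 RPM in lean and 1168, 1436, 1272, 1185 and 1271 RPM in obese livers, without overlap (log2 change 0.49, SE 0.09, limma adjusted p = 0.000405). The rescaled change of miR-93-5p was 0.19 and none of the 4 was called after rescaling. The canonical changes of miR-106b-5p and miR-106b-3p (0.64 and 0.53) were lost without obese 2 or 5 or lean 2, the first also without obese 1 or lean 4 and the second also without obese 3 or lean 3. Without obese 2 only 1 of the 4 was called. Of the related miR-17-92 cluster, which drives proliferation, 8 members were tested, none rose and 1 fell, with a median change of 0.08 that became -0.21 on rescaling. The difference between the 2 clusters was not tested.

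None of 4 members of the miR-192 to miR-194 cluster, 3 of the miR-23b to miR-27b cluster and 3 of the miR-188 to miR-532 cluster was called, and their medians of 0.05, 0.09 and 0.14 turned negative on rescaling. The miR-532-5p level, for example, was 225 ± 24.6 RPM in lean and 248 ± 29.1 RPM in obese livers (SD, n = 5 each; log2 change 0.14, limma adjusted p = 0.345). In the miR-23a to miR-27a cluster 2 of 3 rose (39.0% of all miRNAs rose), miR-27a-3p by 0.53 and miR-24-2-5p by 0.54 (limma adjusted p = 0.0424 and 0.0108). The miR-27a-3p call was lost without each library except obese 3, obese 4 and lean 5, and none of the 3 was called after rescaling. From the list of the imprinted miR-379 to miR-410 cluster and the miR-127 region, only miR-127-3p reached the filter. It was 106 RPM in obese 2 and 2.43 to 18.5 RPM in the other 9 libraries (log2 change 1.29, limma adjusted p = 0.123).

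**Figure D4:**
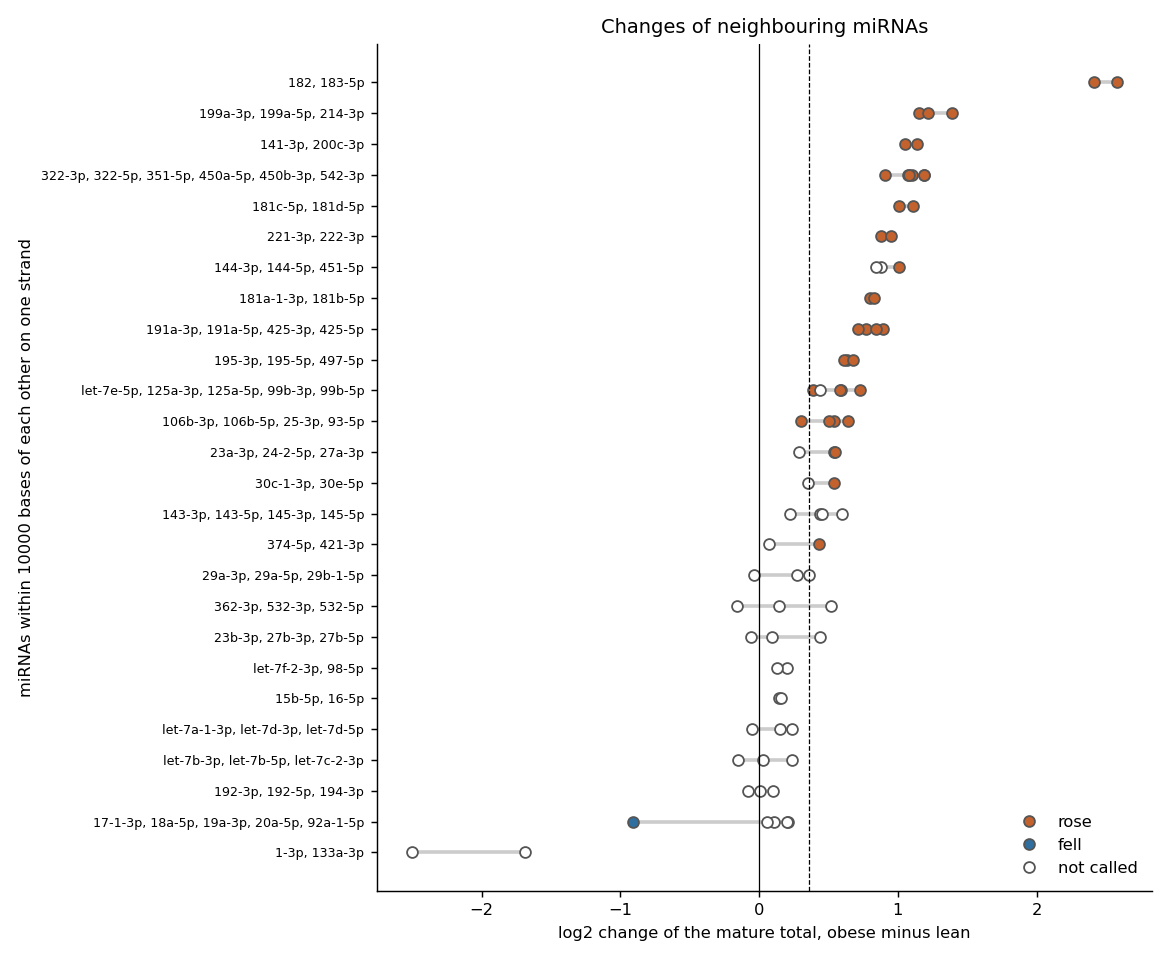
Change of mature totals (log2, obese minus lean) for 78 miRNAs in 26 groups of neighbours within 10000 bases, with risen members in orange, fallen in blue and uncalled open, and the median of all miRNAs as a dashed line. The widest row is that of miR-17-92 (-0.91 to 0.21), and the rows run from the miR-182 and miR-183 pair (2.41 and 2.58) to the miR-1 and miR-133a pair (-2.50 and -1.69, not called).

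Members of a seed family whose genes lie apart could differ. Of the 5 miRNAs with seed AGCAGCA, the miR-322-5p, miR-497-5p and miR-195-5p totals rose by 1.19, 0.68 and 0.61, and miR-16-5p and miR-15b-5p, with changes of 0.16 and 0.14, were not called. After rescaling the miR-195-5p change of 0.31 was no longer called. Because miR-16-5p is the bulk of the family (5428 ± 869 RPM in lean, 6030 ± 620 RPM in obese livers), the summed family level of 5726 to 8114 RPM in lean and 6653 to 8661 RPM in obese livers overlapped widely. All 4 members of the miR-181 family (seed ACAUUCA), which act on immune cell signalling, rose by 0.70 to 1.11. The miR-181a-5p call was lost after rescaling (0.40, limma adjusted p = 0.118). The family's sum was 889 to 1329 RPM in lean and 1242 to 2223 RPM in obese livers. In the miR-30 family 1 of 4 tested members rose (39.0% of all miRNAs rose), miR-30e-5p by 0.54 (limma adjusted p = 0.0241). That call was lost without obese 1, 2 or 5 or lean 2 or 4 and after rescaling.

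A further rise among the largest was miR-218a-5p (locus 1), whose copies lie in the axon guidance genes Slit2 and Slit3. It was 15.9, 12.1, 24.9, 17.4 and 25.0 RPM in lean and 35.03, 85.9, 34.5, 30.9 and 60.7 RPM in obese livers, with no overlap (log2 change 1.26, SE 0.32, limma adjusted p = 0.00495), and 1.04 without obese 2. The changes were somewhat larger for rarer miRNAs. The median change was 0.45 in the 97 miRNAs with a mean below 100 RPM, 0.36 in 71 between 100 and 1000 RPM, and 0.24 in 50 above that. Across miRNAs, which are not independent, Spearman's rho of the change with the lean level was -0.28 (n = 218), with the GC content of the mature sequence -0.02 and with its length 0.06 (n = 197 each).

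The balance between the 2 arms of a hairpin was compared for 62 hairpins with both arms above the filter. None passed limma's test in either direction (0.0%), and 4 had an unadjusted p under 0.05. The smallest was for miR-92a-1, whose 5p to 3p ratio changed by -0.52 (SE 0.16, limma adjusted p = 0.203): the 5p arm fell, and the 3p arm was 12181 RPM in lean and 9092 RPM in obese livers. Each arm is the sum of its forms as deposited for that hairpin.

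Reads that start or end away from the canonical form, listed with a signed offset, took 8.73% ± 0.36 (SD, n = 5) of all miRNA reads in lean and 8.35% ± 0.28 (n = 5) in obese livers (two-sided exact permutation p = 0.0952). Of the reads outside miR-122-5p the share was 6.11% in both groups. Of 163 ratios of a shifted to its canonical form, 3 rose (1.84%) and 2 fell (1.23%). The firmest was miR-101b-3p marked -1, from an miRNA that is abundant in hepatocytes. It had 22.7, 21.9, 22.3, 23.4 and 21.8 shifted reads per 100 canonical reads in lean and 25.6, 27.8, 28.6, 26.4 and 26.4 in obese livers. The groups did not overlap, and the log2 change of the ratio was 0.26 (SE 0.04, limma adjusted p = 9.8e-05), called with every library left out in turn. The related miR-101a-3p marked -1 had 29.2 ± 2.34 and 34.0 ± 2.22 shifted reads per 100 (SD, n = 5 each; log2 change 0.22, limma adjusted p = 0.0547).

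The other 4 calls were less stable. The ratio for miR-199a-3p marked -1 rose from 7.45 ± 0.514 to 8.67 ± 0.448 per 100 (SD, n = 5 each; log2 change 0.20, limma adjusted p = 0.0258) and was lost without obese 2 or 3 or lean 2 or 3. The ratio for miR-122-3p marked -1 rose from 22.6 ± 2.06 to 26.2 ± 1.57 per 100 (log2 change 0.22, limma adjusted p = 0.0466) and was lost without obese 2, 3 or 5 or lean 1, 2 or 4. The ratios for miR-192-5p and miR-203a-3p marked +1 fell, from 15.5 ± 0.349 to 13.8 ± 0.519 and from 89.0 ± 7.75 to 76.9 ± 4.20 per 100 (log2 changes -0.17 and -0.21, limma adjusted p = 0.0441 and 0.0466). The miR-192-5p call was lost without each library except obese 1, obese 3 and lean 4, and the miR-203a-3p call without each except obese 1, lean 1 and lean 2. With obese 2 left out, 1 ratio was called, that of miR-101b-3p. The most abundant shifted form, miR-122-5p marked +1, held 12.4 ± 0.389 per 100 in lean and 12.5 ± 0.174 in obese livers.

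**Figure D5:**
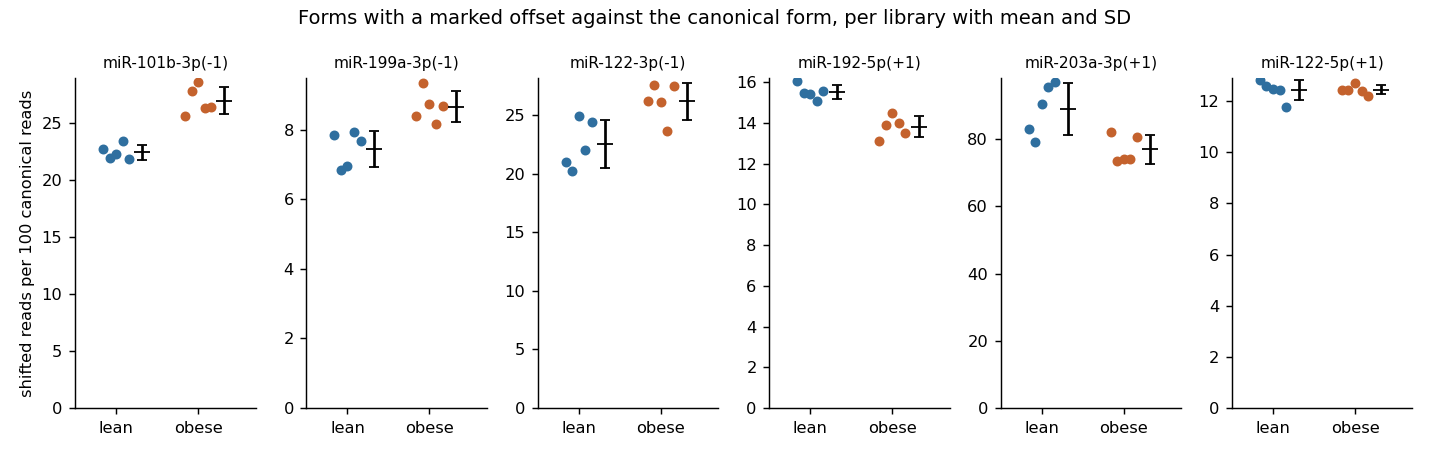
Shifted reads per 100 canonical reads (axes from 0) for the 5 called forms and for miR-122-5p marked +1 in each lean (blue) and obese (orange) library, with mean and SD in black. The miR-101b-3p form moved from a mean of 22.4 to 26.9, and the miR-122-5p form was at 12.4 and 12.5.

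A second leptin pathway model in the series, 5 ob/ob mice against 5 control C57BL/6J mice in a table normalised separately, was fitted the same way. The streptozotocin-treated mice of that table entered the filter on low levels and the estimate of spread. The mouse values are set beside the rat values without a test of the difference. In mice 44 of 278 mature totals rose (15.8%) and 32 fell (11.5%). Of 164 miRNAs tested in both species 67 had risen in obese Zucker rats, and of these 18 rose, 6 fell and 43 were not called in ob/ob mice. The total of miR-34a-5p changed by 1.80 in rats and by 2.31 in mice (limma adjusted p = 4.8e-09), and that of miR-802-5p by 0.85 and 2.89 (limma adjusted p = 3.2e-08 in mice). The miR-155-5p total changed by 1.95 in rats and -0.36 in mice (SE 0.35, limma adjusted p = 0.451 in mice). Its mouse level was low, with means of 14.66 RPM in ob/ob and 18.35 RPM in control mice. The miR-183-5p total changed by 2.41 in rats and -0.12 in mice (SE 0.48, limma adjusted p = 0.864 in mice). Its level varied widely among ob/ob mice (116.7 ± 118.4 RPM, SD, n = 5). The miR-199a-5p total rose by 1.39 in rats and fell by 0.97 in mice (limma adjusted p = 0.0303 in mice).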

How the data were processed

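Per the labels' protocols, small RNA libraries were made from liver total RNA (TriLink CleanTag kit). The authors deposited reads per 1000000 miRNA reads (RPM) for miRNA forms, 1 entry per locus, with forms off the canonical position marked by a signed offset, whose meaning is not given in the sources used here. Each library sums to 1000000 in the deposited RPM table. The submitters' processing notes name STAR, Salmon and DESeq2 and the builds rn6, mm9, mm10 and hg19 without roles or versions. Depth was estimated from steps between low values, searched only where the lowest value held 8.5 to 12 steps, so it rests on that assumption. Of low values 58.8% to 69.9% were whole multiples (tolerance 0.0055 RPM), too few for a count test.

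Groups came from titles and run names, and lanes from run names. The run name of vehicle replicate 5 says BT2, against its title. Columns of samples left unmapped: 0. Values were log2(RPM + 1). Features with a mean of at least 10 RPM over 20 libraries were tested: 422 of 1204 forms and 218 of 387 mature totals (loci averaged, forms summed), with arm and offset ratios as log2 differences. limma 3.58.1 in R 4.3.3 with a variance trend fitted all 4 Zucker groups. The fit was also run on simulated libraries with independent noise. These had no lane effect, outlying library or fixed sum, so that run cannot speak for such features. Shares were compared by two-sided exact permutation (smallest p 0.00794). Neighbours and sequences came from RefSeq GRCr8. Mouse data were fitted likewise, with the ob/ob, control and streptozotocin groups in the fit.

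The members, the 26 lists and the tests were chosen with earlier results of these data known. The rule for naming took the 15 largest rises and 10 largest falls among called canonical entries (20 RPM or more on average), always miR-122-5p, the miR-29 family, miR-802-5p and miR-34a-5p, from each list 3 called miRNAs a direction (2 abundant ones if none), and 8 called ratios a direction. Members of neighbour groups and seed families, and the mouse values, were picked after their values were seen. Alternatives covered pseudocount, filter, samples fitted, lanes, replicate block, scaling and each library left out, and 2 were added after seeing the data.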

Additional observations from a re-analysis of the deposited data

Results flagged for a closer look

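A library far from its group was looked for in 106 groups of 5 values, and 6 were found; chance gives about 1 in 20. Of these 5 were obese 2. It held 66.3 RPM of miR-132-3p against 30.4 to 35.3 RPM in the other obese libraries, 135 RPM of miR-199a-5p against 58.1 to 70.5 RPM, and 106 RPM of miR-127-3p against 4.77 to 18.5 RPM. It also held 952 RPM of the muscle miRNA miR-1-3p against 13.2 to 83.4 RPM, and 840 RPM of miR-206-3p against 3.51 to 63.8 RPM. The other was lean 4, with 5088 RPM of let-7i-5p against 4108 to 4265 RPM in the other lean libraries.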

How the results depend on the processing

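The 163 forms called (150 up, 13 down) became 249 with no filter, 86 at a mean of at least 50 RPM, 39 within lane 1, 7 within lane 2 and 108 per 1000000 reads other than miR-122-5p. Median-of-ratios rescaling gave 120, but 57 up and 63 down. The 88 mature totals called became 23 within lane 1, 3 within lane 2, 58 on rescaling and 55 per 1000000 reads other than miR-122-5p. No arm ratio was called except 5 with no filter. The 5 shifted ratios became 14 with a pseudocount of 5, 11 with no filter, 9 at a mean of at least 50 RPM, 3 in obese and lean libraries only, 9 with lane as a term and 0 within either lane (20 and 11 at an unadjusted p under 0.05). Leaving out 1 library gave 114 to 188 forms, 62 to 98 totals, 0 arm ratios and 1 to 11 shifted ratios, and differences of -9.20 to -6.31 percentage points in the miR-122-5p share and -0.47 to -0.28 in the shifted share. Those differences, -7.57 and -0.38, had an exact p of 0.0278 each with labels permuted within lanes. With miR-1-3p as a covariate the change of miR-206-3p was 1.01 (limma adjusted p = 0.0186) against -1.68. A pairing of the libraries by replicate number was not established. Deviations of same-numbered libraries correlated at -0.46, 0.42, 0.34, 0.23 and 0.41, and their lanes mostly differ. The median correlation was 0.23 over 9 obese and lean pairs of the same lane and -0.27 over 16 pairs of different lanes. A replicate block gave 152 forms, 80 totals, 0 arm ratios and 5 shifted ratios, and an exact sign-flip p of 0.25 for each share (smallest possible 0.0625). Within a lane there are 2 libraries a group.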
